A study of Gallus gallus with 24 samples.

Results

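The HOX cluster genes of the chicken were followed in the left and right gonads of female embryos over 4 stages. Members were the rows of the deposited count table named HOX followed by a cluster letter from A to D and a paralog number, with at least 10 counts in 3 or more libraries. Of 24154 rows, 39 carried such a name and 31 met the minimum. These were 10 genes of cluster A, 9 of cluster B, 6 of cluster C and 6 of cluster D. All 31 also passed the filter on low counts applied before the tests, so none was lost between the rule and the tests.

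Gonads of Leghorn chickens, described in the labels as gonadal cells, were dissected at embryonic days 5, 6.5, 8 and 9.5 (E5, E6.5, E8 and E9.5), left and right apart. Each of the 8 groups, left and right at each of the 4 stages, held 3 poly(A) RNA-seq libraries, 24 in all; every group was female and untreated as far as the labels go. Female birds as a rule keep an ovary on the left alone, the right gonad regressing, and the study followed this asymmetry. Whether the 3 libraries of a group came from separate embryos, from pools or from repeated preparations is not in the labels, and p-values measure only the spread between samples, which may then be technical.

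HOX genes encode homeodomain transcription factors that lie in clusters and give embryonic tissues their position along the head-to-tail axis. Within a cluster, genes with low paralog numbers are used early and far forward, and genes with high numbers later and further back; genes with the same number in different clusters descend from a common ancestor and often act redundantly. Their proteins bind DNA with cofactors of the TALE homeodomain class, the PBX and MEIS proteins, and their transcription responds to retinoic acid and is held down by Polycomb complexes. The gonad forms on the ventral face of the mesonephros, the embryonic kidney, in trunk mesoderm where many HOX genes are active.

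The 8 HOX-named rows below the minimum were HOXA13, HOXB13, HOXC11, HOXC12, HOXC13, HOXD1, HOXD12 and HOXD13, none of which reached 10 counts in any library. Of the 4 genes with paralog number 13, which in vertebrates pattern the cloaca, tail and distal limb, none was a member. The highest number among the members was 11, with HOXA11 at 10 or more counts in 7 libraries and HOXD11 in 3. At the front end, HOXB1 reached 10 counts in 14 libraries. HOXA2 to HOXA10, HOXB2 to HOXB9, HOXC5 to HOXC10, HOXD3 and HOXD8 reached it in all 24. Levels are given as CPM, each count relative to its scaled library total, and are compared for one gene between libraries, never between genes, since transcript lengths were not used. In the RefSeq annotation of a later build (GRCg7b), where 27 of the 31 members were found by symbol, models of neighbouring genes overlap: HOXA3 with HOXA4, HOXA5 and HOXA6, HOXA9 with HOXA10, HOXB3 with HOXB4, HOXB5 and HOXB6, and HOXD3 with HOXD4. Reads of overlapping models cannot be told apart without the counting mode and strand setting, so the values of these genes may not be independent.

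Library totals ran from 15078282 to 19970859 counts, and replicate libraries differed by more than counting noise (chi-square per degree of freedom 7.91 to 58.1 over 24 pairs). The 8 gonadal somatic markers, among them WT1, GATA4 and NR5A1, were all detected, with a summed level between 929 and 4735 CPM. Markers of neighbouring tissues were present too. The 17 mesonephros markers that were tested (of 21 listed, such as the tubule transporters CUBN and LRP2) summed to 109 to 1281 CPM in left libraries and 228 to 3727 CPM in right libraries, and none of them was at 0 in all libraries. The liver transcript ALB stood at 1008 CPM in the third right library of E8 and at 170 CPM in the third left library of E6.5, against at most 10.1 CPM elsewhere. These values recur beside the results they move with.

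HOX transcripts were less abundant at E9.5 than at E5 in both gonads. In the left gonad 23 of the 31 members passed the test at E9.5 against E5 (edgeR quasi-likelihood test, Benjamini-Hochberg adjusted p under 0.05 over 16694 genes), 22 lower and 1 higher, where 34.2% of all genes passed, 18.2% higher and 16.0% lower. In the right gonad 21 passed, 20 lower and 1 higher, where 37.5% of all genes passed, 21.5% higher and 16.1% lower. The median log2 fold change over the members was -1.35 in the left gonad and -1.01 in the right gonad, beside 0.00 and 0.03 over all genes tested. Libraries of E9.5 and E5 did not overlap for 25 members in the left gonad, 24 of them lower at E9.5, against 45.8% of all genes (22.3% lower), and for 21 members in the right gonad, 20 of them lower, against 43.2% of all genes (18.9% lower). A bulk measurement does not tell fewer cells of a type from less RNA per cell. The summed level of the gonadal somatic markers was higher at E9.5, at 4088 to 4735 CPM in the left gonad at E9.5 against 1141 to 1622 CPM at E5, and at 3400 to 4534 CPM in the right gonad at E9.5 against 929 to 1198 CPM at E5. Of these 8 markers 3 passed as higher and 3 as lower on each side, with median log2 fold changes of 0.13 in left and 0.14 in right gonads; the part of these markers in the HOX result was not tested.

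The genes lower at E9.5 in both gonads numbered 18 and came from clusters A, B and C, among them HOXA2 to HOXA6, HOXA9, HOXB3, HOXB5, HOXB6, HOXB8, HOXB9 and all 6 members of cluster C. HOXB1, HOXB4, HOXD3 and HOXD9 passed as lower in the left gonad only, and HOXA7 and HOXA10 in the right gonad only; whether the change differed between the gonads was tested and is given with the side comparisons. HOXA11, HOXB7, HOXD4, HOXD8, HOXD10 and HOXD11 passed in neither. HOXB2 was the 1 member that rose, in both gonads. By cluster, the members called were 7 of 10 in A, 8 of 9 in B, 6 of 6 in C and 2 of 6 in D in the left gonad, and 9 of 10, 6 of 9, 6 of 6 and 0 of 6 in the same order in the right gonad. The plot of stage changes sets both gonads side by side for each gene.

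**Figure D1:**
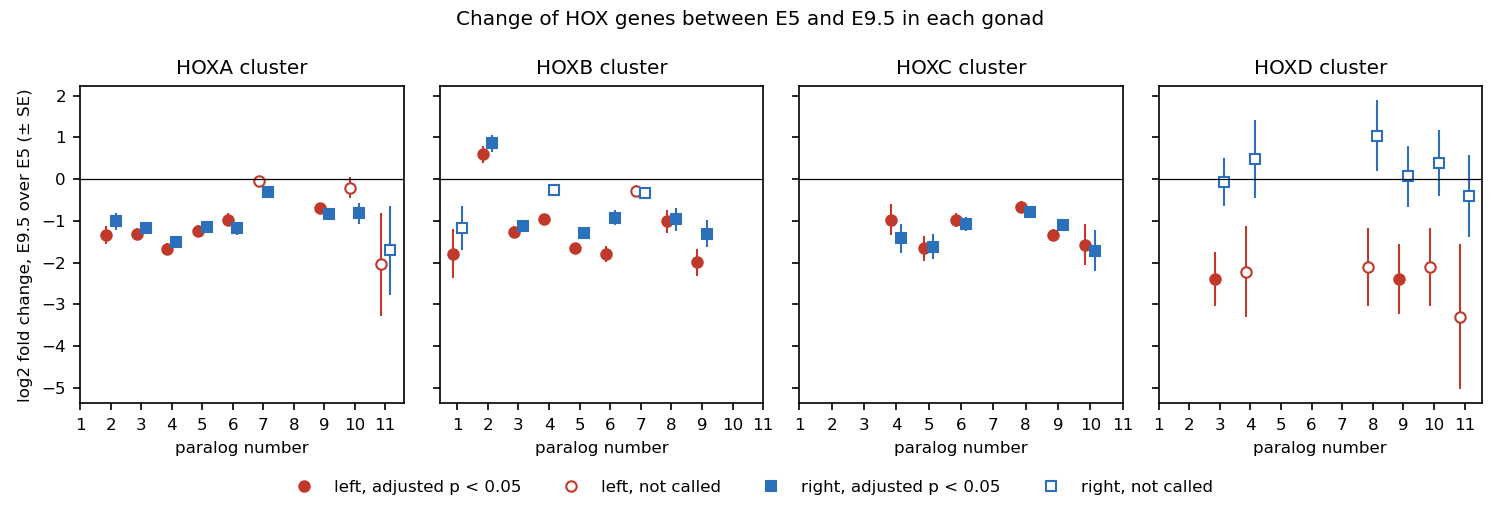
Log2 fold change at E9.5 against E5 (vertical axis) by paralog number (horizontal axis), with a panel for each HOX cluster; circles are left and squares right gonads, bars are the SE, and filled symbols have an adjusted p under 0.05. Most members of clusters A, B and C lie below 0 on both sides, HOXB2 lies above 0, and the wide bars of cluster D follow the spread of those genes between replicate libraries.

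In cluster A, HOXA4, which patterns neck vertebrae in the mouse, fell in both gonads. It stood at 16.99, 15.9 and 19.4 CPM in left gonads at E9.5, against 52.05, 51.8 and 63.5 CPM at E5, a log2 fold change of -1.68 ± 0.14 (SE, adjusted p = 1.43e-08). Right gonads held 26.4, 18.3 and 23.6 CPM at E9.5, against 55.4, 67.2 and 71.1 CPM at E5, a log2 fold change of -1.50 ± 0.14 (SE, adjusted p = 6.62e-08). Every E9.5 library lay below every E5 library of its side, with 3.202-fold less transcript on the left side and 2.84-fold less on the right side. Over the 4 stages the left values of HOXA4 were 52.05, 51.8 and 63.5 CPM at E5, 32.9, 33.6 and 36.7 at E6.5, 13.5, 16.4 and 13.8 at E8 and 16.99, 15.9 and 19.4 at E9.5, so that most of the drop lay before E8.

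HOXA2 to HOXA6 and HOXA9 fell in both gonads as well. These include HOXA2, which sets the identity of the second pharyngeal arch, HOXA3, needed for thymus and parathyroid in the mouse, and HOXA5, needed for lung development in the mouse. Their log2 fold changes lay between -1.68 for HOXA4 and -0.70 for HOXA9 in the left gonad, and between -1.50 and -0.83 for the same genes in the right gonad. HOXA3, for example, was at 20.5, 21.6 and 28.5 CPM in left gonads at E9.5, against 57.6, 51.6 and 67.4 CPM at E5 (-1.32 ± 0.15 (SE, adjusted p = 5.34e-07)).

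HOXA7, a gene of the thoracic region, changed least of the members in the left gonad. It stood at 66.2, 62.8 and 61.96 CPM in left gonads at E9.5, against 58.4, 70.9 and 68.1 CPM at E5, with overlapping stages and a log2 fold change of -0.05 ± 0.09 (SE, adjusted p = 0.721). In right gonads it was at 61.4, 56.2 and 52.3 CPM at E9.5, against 65.3, 73.1 and 73.4 CPM at E5, a small fall without overlap (-0.32 ± 0.09 (SE, adjusted p = 0.00930)). HOXA7 is thus one of the few members whose left level at E9.5 was within the range of its level at E5.

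HOXA10, which in the mouse suppresses ribs on lumbar vertebrae and is needed in the uterus, had another course. Its left values were 32.8, 13.9 and 17.3 CPM at E5, 28.2, 32.1 and 28.5 at E6.5, 16.6, 21.2 and 20.9 at E8 and 18.5, 18.4 and 18.7 at E9.5. The right values were 41.4, 22.9 and 18.5 CPM at E5, 33.5, 28.9 and 30.99 at E6.5, 23.4, 24.1 and 26.7 at E8 and 15.1, 17.1 and 14.5 at E9.5. At E5 the first library of each side stood above the other two of its group. The log2 fold change at E9.5 against E5 was -0.21 ± 0.26 (SE, adjusted p = 0.578) on the left side and -0.82 ± 0.26 (SE, adjusted p = 0.0158) on the right side; without the first right library of E5 the right call was lost (adjusted p = 0.136). HOXA10-AS, an annotated antisense transcript whose model overlaps HOXA9 and HOXA10, was also lower at E9.5, by a log2 fold change of -0.84 ± 0.16 in the left gonad (SE, adjusted p = 3.98e-04) and -0.82 ± 0.16 in the right gonad (SE, adjusted p = 5.03e-04). HOXA11, a partner of HOXD11 in kidney development in the mouse, did not pass on either side (log2 fold changes -2.04 ± 1.23 (SE, adjusted p = 0.216) on the left side and -1.71 ± 1.07 (SE, adjusted p = 0.223) on the right side) at counts of at most 55.

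In cluster B, HOXB5 had the smallest adjusted p of any member in the left gonad. HOXB5, which takes part in enteric nervous system development, was at 15.5, 12.9 and 14.4 CPM in left gonads at E9.5, against 45.6, 42.6 and 46.7 CPM at E5, a log2 fold change of -1.66 ± 0.14 (SE, adjusted p = 8.51e-09). Right gonads held 25.9, 31.95 and 20.7 CPM at E9.5, against 67.2, 56.5 and 68.8 CPM at E5, a log2 fold change of -1.29 ± 0.13 (SE, adjusted p = 2.20e-07). The stages did not overlap on either side.

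HOXB4, known for expanding blood stem cells in culture, fell in the left gonad only by the test. It was at 18.6, 15.99 and 15.02 CPM in left gonads at E9.5, against 34.5, 32.3 and 29.3 CPM at E5, a log2 fold change of -0.95 ± 0.11 (SE, adjusted p = 8.54e-07) with no overlap. In right gonads it was at 33.3, 40.4 and 31.04 CPM at E9.5, against 42.03, 43.5 and 39.8 CPM at E5, with overlapping stages and a log2 fold change of -0.26 ± 0.11 (SE, adjusted p = 0.0646). At E6.5 HOXB4 stood above both end points on each side, at 39.1, 42.8 and 37.8 CPM in left and 61.6, 55.7 and 62.2 CPM in right gonads. The difference between the left and the right change was tested on its own and is given further on.

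HOXB2, which acts in hindbrain segments and facial motor neurons in the mouse, was the member that rose. It was at 5.78, 6.43 and 5.63 CPM in left gonads at E9.5, against 4.10, 2.85 and 4.83 CPM at E5, 1.51-fold higher with a log2 fold change of 0.60 ± 0.21 (SE, adjusted p = 0.0317). Right gonads held 11.5, 9.87 and 8.82 CPM at E9.5, against 4.07, 6.51 and 6.04 CPM at E5, 1.82-fold higher with a log2 fold change of 0.86 ± 0.21 (SE, adjusted p = 0.00251). The stages did not overlap on either side. The left call was lost in 13 of 24 fits that each left out 1 library (adjusted p up to 0.216), whereas the right call held in all 24.

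HOXB9, a gene of the thoracic region, had the widest fall of the cluster in the left gonad, at 13.2, 13.4 and 16.6 CPM at E9.5 against 65.9, 46.2 and 60.5 CPM at E5 (-1.997 ± 0.32 (SE, adjusted p = 6.25e-05)). In the right gonad the log2 fold change was -1.30 ± 0.31 (SE, adjusted p = 0.00266), and the second right library of E9.5 stood at 45.2 CPM beside 17.8 and 26.4 CPM. HOXB3, HOXB6 and HOXB8 also fell on both sides, by 1.27, 1.79 and 1.01 on the log2 scale in the left gonad and by 1.12, 0.93 and 0.97 in the right gonad. HOXB1, which marks a single hindbrain segment in vertebrates, fell in the left gonad (-1.79 ± 0.59 (SE, adjusted p = 0.0226)) and did not pass in the right gonad (-1.18 ± 0.53 (SE, adjusted p = 0.0873)). HOXB7 passed on neither side, with log2 fold changes of -0.27 ± 0.14 (SE, adjusted p = 0.138) on the left side and -0.34 ± 0.14 (SE, adjusted p = 0.0598) on the right side. The paralog-7 genes of both clusters thus had small log2 fold changes, between -0.34 and -0.05.

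**Figure D2:**
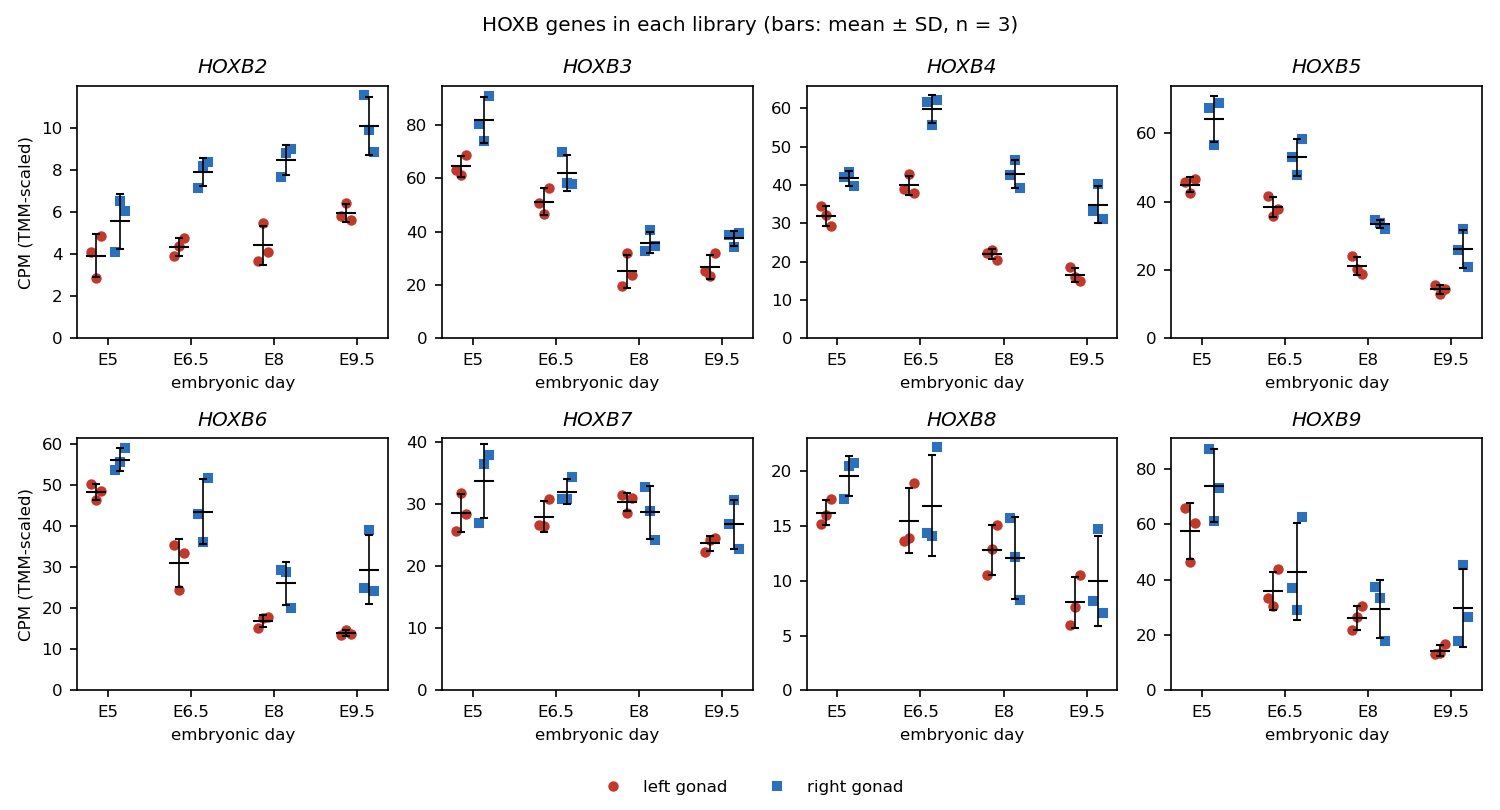
Level in CPM of HOXB2 to HOXB9 in each of the 24 libraries by stage (E5, E6.5, E8, E9.5), left gonad and right gonad offset side by side, with the mean and SD of each group of 3 in black. HOXB4 and HOXB5 lie lower in left than in right gonads at each stage, and the gap for HOXB4 is wider at E9.5 (15.02 to 18.6 CPM left, 31.04 to 40.4 CPM right) than at E5 (29.3 to 34.5 CPM left, 39.8 to 43.5 CPM right).

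All 6 members of cluster C were lower at E9.5 on both sides. HOXC9, which sets thoracic motor neuron identity in mouse and chick, had the smallest adjusted p. It was at 14.8, 14.6 and 14.4 CPM in left gonads at E9.5, against 37.2, 32.1 and 40.8 CPM at E5 (-1.33 ± 0.13 (SE, adjusted p = 1.11e-07)). Right gonads held 18.8, 13.6 and 15.9 CPM at E9.5, against 39.7, 30.9 and 32.1 CPM at E5 (-1.09 ± 0.13 (SE, adjusted p = 1.61e-06)), again without overlap. The log2 fold changes of the cluster ran from -1.66 for HOXC5 to -0.66 for HOXC8 in the left gonad, and from -1.72 for HOXC10 to -0.78 for HOXC8 in the right gonad. HOXC4 and HOXC5 had low levels, at most 3.15 and 6.85 CPM in any library, and the left call of HOXC4 was lost in 6 of 24 fits without 1 library (adjusted p up to 0.119). HOXC10 rested in the right gonad on the first library of E5, at 12.9 CPM beside 2.78 and 3.48 CPM; without it the adjusted p was 0.161.

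Cluster D was marked by its spread between replicate libraries. HOXD3 and HOXD9 fell in the left gonad (-2.39 ± 0.65 (SE, adjusted p = 0.00714) and -2.40 ± 0.84 (SE, adjusted p = 0.0323)); HOXD9 was lost without the first left library of E5 (adjusted p = 0.178), the first left library of E9.5 (0.0948) or the third (0.0870). In the right gonad the 6 log2 fold changes lay between -0.39 for HOXD11 and 1.05 for HOXD8, with adjusted p of 0.350 or more; HOXD9 had 0.07 ± 0.73 (SE, adjusted p = 0.954). HOXD11, which had the widest fitted change of all members in the left gonad (-3.30 ± 1.73 (SE, adjusted p = 0.155)), was at 0, 0.0549 and 0 CPM there at E9.5, against 0.543, 0.127 and 0.0635 CPM at E5, so that its change rests on a handful of counts. HOXD8, a gene of the trunk in the mouse, was at 8.24, 60.2 and 26.8 CPM in right gonads at E9.5, against 26.4, 13.6 and 6.23 CPM at E5. Within both groups the highest library held several times the lowest, so the stages overlapped widely. In clusters A to C the highest library of a group was at most 2.54 times the lowest for all but 4 genes, HOXA11, HOXB1 and HOXC10 among them; HOXD4, HOXD8 and HOXD10 reached ratios of 26.0, 11.7 and 38.9.

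Left gonads held less HOX transcript than right gonads. Averaged over the 4 stages, 18 of the 31 members passed the test of left against right, all 18 lower in left gonads, where 32.2% of all genes passed, 14.9% higher and 17.2% lower. The fold change was below 0 for 30 of the 31 members, the exception being HOXA7 (0.12 ± 0.05 (SE, adjusted p = 0.0582)). HOXA11 and HOXB8, which did not pass, changed sign with the mesonephros score as a covariate. The median log2 fold change was -0.39, beside -0.01 over all genes. The summed mesonephros markers spanned 109 to 1281 CPM in left and 228 to 3727 CPM in right libraries over all stages, overlapping ranges. Within stages they did not overlap at E8 (305 to 457 CPM left, 480 to 2748 CPM right) or E9.5 (171 to 471 CPM left, 732 to 3727 CPM right). Of the 17 tested, 16 were called lower in left gonads averaged over the stages, with a median log2 fold change of -1.95. Values with the mean of these markers as a covariate are given further on. Other markers differed between the sides too. Called higher in left gonads were 6 of 6 germ cell, 10 of 12 adrenal and chromaffin and 7 of 11 neural and glial markers. Called lower were 5 of 6 macrophage, 5 of 6 endothelial, 3 of 4 duct and 6 of 10 liver markers. The duct markers PAX2, LHX1 and WNT9B are also among the 17 mesonephros markers. The part of germ cell, macrophage and endothelial markers and of WNT7A, the other duct marker, in the HOX result was not tested. The 10 with the widest change were HOXD4 (-2.08), HOXD8 (-2.004), HOXD9 (-1.70), HOXD3 (-1.67), HOXD10 (-1.25), HOXB2 (-0.77), HOXB4 (-0.75), HOXB5 (-0.63), HOXB6 (-0.60) and HOXA2 (-0.54). HOXB4 was the most significant of all members, with a log2 fold change of -0.75 ± 0.05 (SE, adjusted p = 6.74e-09), and HOXB5 had -0.63 ± 0.07 (SE, adjusted p = 9.04e-07).

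The gap between the sides tended to be wider for genes with low paralog numbers, most evenly in cluster A. In cluster B HOXB3 went against this, with a smaller gap than HOXB4, HOXB5, HOXB6 and HOXB9. So did HOXB9, with a wider gap than HOXB7 and HOXB8. In cluster D HOXD3 had a smaller gap than HOXD4, HOXD8 and HOXD9. HOXA7 had the opposite direction within cluster A. In cluster A the log2 fold change of left against right was -0.54 for HOXA2, -0.39 for HOXA3, -0.36 for HOXA4, -0.28 for HOXA5, -0.21 for HOXA6, 0.12 for HOXA7, -0.17 for HOXA9, -0.13 for HOXA10 and -0.03 for HOXA11. In cluster B it was -0.73 for HOXB1, -0.77 for HOXB2, -0.40 for HOXB3, -0.75 for HOXB4, -0.63 for HOXB5, -0.60 for HOXB6, -0.13 for HOXB7, -0.15 for HOXB8 and -0.46 for HOXB9. Of these, HOXB1 did not pass (adjusted p = 0.0564), nor did HOXA7, HOXA10, HOXA11, HOXB7 and HOXB8. As a description over genes that share the libraries and, in part, overlapping models, the rank correlation of paralog number with this fold change was 0.92 over the 10 genes of cluster A, 0.67 over 9 in B, 0.43 over 6 in C and 0.66 over 6 in D. By class, 5 of 7 members numbered 1 to 3, 9 of 15 numbered 4 to 8 and 4 of 9 numbered 9 to 11 passed. The 4 were HOXA9, HOXB9, HOXD9 and HOXD10. The call of HOXA9 was lost in 18 of 24 fits without 1 library (adjusted p up to 0.0948). HOXB9 was lost in 11 (up to 0.0813) and HOXD10 in 5 (up to 0.0663). Among the lower numbers HOXA6 was lost in 20 (up to 0.127). The other calls in this mean held in all 24 fits.

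**Figure D3:**
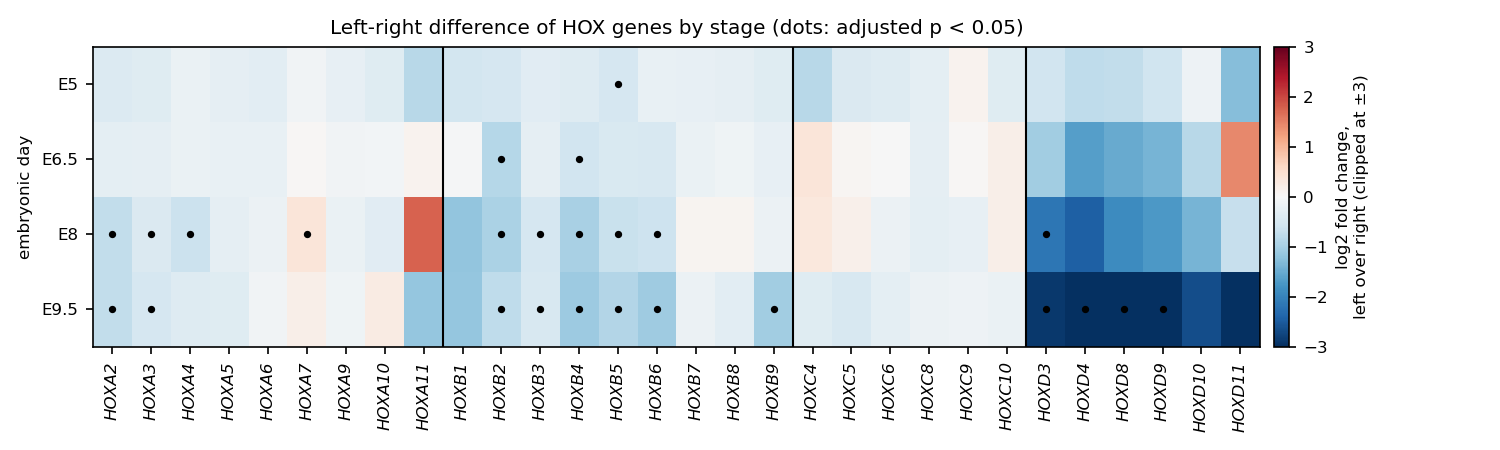
Log2 fold change of left against right gonad for HOX members (columns, by cluster and paralog number) at E5, E6.5, E8 and E9.5 (rows); blue is lower and red higher in the left gonad, values past either end of the colour scale take its end colour, and a dot marks an adjusted p under 0.05. Dots are few at E5 (1) and E6.5 (2) and more numerous at E8 (10) and E9.5 (12), and cluster C has none.

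Between the sides at E5, HOXB5 was the 1 member of 31 that passed, lower in left gonads, where 2.94% of all genes passed (1.92% higher, 1.02% lower). A count of 1 among 31 is near that background. HOXB5 was at 45.6, 42.6 and 46.7 CPM in left and 67.2, 56.5 and 68.8 CPM in right gonads, without overlap. Its log2 fold change was -0.51 ± 0.13 (SE, adjusted p = 0.0345). The call was lost in 10 of 24 fits without 1 library, among them the fits without any left library of E5 or without the first or the third right library (adjusted p up to 0.186). HOXB4 had a log2 fold change of -0.38 ± 0.11 (SE, adjusted p = 0.0591), with 34.5, 32.3 and 29.3 CPM in left and 42.03, 43.5 and 39.8 CPM in right gonads and no overlap. With left and right libraries of the same number paired, which the data of this stage allowed, 3 members passed, HOXB5, HOXB4 (adjusted p = 0.0418) and HOXA3 (adjusted p = 0.0312), while the calls among all genes numbered 814 against 490 without pairing. In all, 14 of the 31 members did not overlap between the sides, each lower in left gonads, against 18.5% of all genes, 9.31% higher and 9.18% lower.

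At E6.5 HOXB2 and HOXB4 passed, both lower in left gonads, where 3.24% of all genes passed (2.67% higher, 0.575% lower). HOXB4 was at 39.1, 42.8 and 37.8 CPM in left and 61.6, 55.7 and 62.2 CPM in right gonads, a log2 fold change of -0.58 ± 0.11 (SE, adjusted p = 0.00345). HOXB2 was at 3.91, 4.36 and 4.74 CPM in left and 7.12, 8.19 and 8.37 CPM in right gonads, a log2 fold change of -0.86 ± 0.21 (SE, adjusted p = 0.0249). Neither gene overlapped between the sides. HOXB4 passed in all 24 fits without 1 library; HOXB2 was lost without the first or second left library or any right library of E6.5 (adjusted p up to 0.112), which left 1 member. HOXB5 had a log2 fold change of -0.46 ± 0.13 (SE, adjusted p = 0.0570), with 41.5, 35.9 and 37.7 CPM in left and 52.9, 47.6 and 58.3 CPM in right gonads and no overlap. Without overlap were 6 members, all lower in left gonads, against 15.6% of all genes in either direction and 6.15% lower.

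At E8, 10 of the 31 members passed, 9 lower and 1 higher in left gonads, where 14.3% of all genes passed (7.54% higher, 6.71% lower). Those lower were HOXA2, HOXA3, HOXA4, HOXB2, HOXB3, HOXB4, HOXB5, HOXB6 and HOXD3, and HOXA7 was higher. HOXB4 stood at 22.2, 23.1 and 20.5 CPM in left and 42.6, 46.7 and 39.3 CPM in right gonads, 1.96-fold less (-0.97 ± 0.11 (SE, adjusted p = 1.04e-05)). HOXB5 was at 23.99, 20.4 and 18.9 CPM in left and 34.6, 33.6 and 32.05 CPM in right gonads (-0.66 ± 0.13 (SE, adjusted p = 0.00252)). HOXB2, at 3.65, 5.46 and 4.11 CPM in left and 7.63, 8.80 and 8.97 CPM in right gonads, had a log2 fold change of -0.94 ± 0.21 (SE, adjusted p = 0.00529). For all 3 genes every left library lay below every right library.

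HOXA7 was the 1 member that passed as higher in left gonads at E8, at 80.98, 63.1 and 75.7 CPM in left and 55.1, 59.3 and 57.7 CPM in right gonads (0.35 ± 0.09 (SE, adjusted p = 0.0140)), without overlap. The call was lost with the adrenal and neural markers described next as a covariate (adjusted p = 0.0615), without the first left library of E8 (0.0743) and without the 3 libraries richest in mesonephros markers (0.0679). HOXA4 was at 13.5, 16.4 and 13.8 CPM in left and 20.1, 24.7 and 23.7 CPM in right gonads (-0.65 ± 0.14 (SE, adjusted p = 0.00527)). HOXD3 had the widest gap among the members that passed at this stage, at 1.83, 1.74 and 1.45 CPM in left and 12.9, 6.81 and 2.93 CPM in right gonads (-2.17 ± 0.63 (SE, adjusted p = 0.0254)). The left libraries of HOXD3 were close together, and the right ones far apart. The other calls had log2 fold changes of -0.73 ± 0.22 (SE, adjusted p = 0.0286) for HOXA2, -0.44 ± 0.15 (SE, adjusted p = 0.0482) for HOXA3, -0.51 ± 0.15 (SE, adjusted p = 0.0274) for HOXB3 and -0.62 ± 0.18 (SE, adjusted p = 0.0278) for HOXB6. Without overlap were 17 members, 15 of them lower in left gonads, against 39.3% of all genes in either direction and 21.3% lower.

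Calls at E8 depended on single libraries more than those of HOXB4. The count of members called was 4 without the first left library of E8, 6 without the second and 5 without the third, and 5 without either the first or the second right library. Calls among all genes fell as well in these fits, from 2379 to 1349, 1481, 1554, 1433 and 1362 in the same order. HOXB4 passed in every one of these fits, whereas HOXA3 was lost in 23 of 24. Adrenal, chromaffin, neural and glial markers were also higher in left gonads at this stage: 11 of 12 adrenal and chromaffin and 6 of 11 neural and glial markers passed as higher, the adrenal and chromaffin markers summing to 756 to 1907 CPM in left and 210 to 239 CPM in right libraries and the neural and glial ones to 577 to 1034 CPM in left and 210 to 308 CPM in right libraries. The 10 liver markers were all called lower in left gonads, with a median log2 fold change of -5.75. They summed to 551 to 770 CPM in left and 1325 to 3158 CPM in right libraries. The third right library stood apart, with a mean log2 CPM of these markers of 7.25. The other right libraries had 2.74 and 1.97, and left libraries 0.55 to 1.38. Their part in the HOX calls was not tested, apart from the fits without the 2 libraries with most ALB. At E8, 7 members and 2097 of all genes passed in that fit. None of the adrenal, chromaffin, neural, glial and liver markers was at 0 in all libraries. With the mean level of both the adrenal and the neural lists as a covariate, 5 of the members passed at E8. Calls among all genes with that covariate numbered 1710, against 2379 without it.

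At E9.5, 12 of the 31 members passed, all lower in left gonads, where 13% of all genes passed (5.13% higher, 7.87% lower). HOXB4 was at 18.6, 15.99 and 15.02 CPM in left and 33.3, 40.4 and 31.04 CPM in right gonads, 2.11-fold less (-1.08 ± 0.11 (SE, adjusted p = 2.91e-06)). HOXB5 was at 15.5, 12.9 and 14.4 CPM in left and 25.9, 31.95 and 20.7 CPM in right gonads (-0.88 ± 0.13 (SE, adjusted p = 3.44e-04)). HOXB6, a gene of the thoracic region in the mouse, was at 13.5, 14.7 and 13.7 CPM in left and 25.03, 39.2 and 24.2 CPM in right gonads (-1.08 ± 0.18 (SE, adjusted p = 9.05e-04)). The left libraries of these 3 genes lay close together and below every right library.

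HOXB2 was at 5.78, 6.43 and 5.63 CPM in left and 11.5, 9.87 and 8.82 CPM in right gonads (-0.76 ± 0.20 (SE, adjusted p = 0.0204)). The other calls in clusters A and B were HOXA2 (-0.74 ± 0.21 (SE, adjusted p = 0.0283)), HOXA3 (-0.50 ± 0.14 (SE, adjusted p = 0.0286)), HOXB3 (-0.48 ± 0.15 (SE, adjusted p = 0.0384)) and HOXB9 (-1.05 ± 0.32 (SE, adjusted p = 0.0355)). HOXA3 was the 1 called member whose sides overlapped, the highest left library being at 28.5 CPM and the lowest right library at 28.2 CPM. HOXA7, at 66.2, 62.8 and 61.96 CPM in left and 61.4, 56.2 and 52.3 CPM in right gonads, had a log2 fold change of 0.17 ± 0.09 (SE, adjusted p = 0.241). The 6 members of cluster C had log2 fold changes between -0.48 and -0.14, with adjusted p of 0.284 or more.

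Cluster D supplied the other 4 calls at E9.5, with the widest gaps among those that passed. HOXD8 was at 1.67, 3.63 and 1.19 CPM in left and 8.24, 60.2 and 26.8 CPM in right gonads, 14.7-fold less (-3.88 ± 0.97 (SE, adjusted p = 0.0139)). Without 1 library its log2 fold change ran from -4.45 to -2.98, and the call was lost without the first or the third left or the second right library of E9.5 (adjusted p up to 0.0704). HOXD4 was at 0.119, 1.76 and 0.103 CPM in left and 2.28, 13.6 and 6.08 CPM in right gonads (-3.46 ± 1.09 (SE, adjusted p = 0.0419)), with a range of -5.93 to -2.61 without 1 library and the call lost without the same 3 libraries (adjusted p up to 0.172). HOXD3 had a log2 fold change of -2.88 ± 0.65 (SE, adjusted p = 0.00765) and HOXD9, a gene of limb and lumbar development in the mouse, one of -3.07 ± 0.84 (SE, adjusted p = 0.0226). None of the 6 members of the cluster overlapped between the sides, but the right libraries of each spread several times. In all, 16 members did not overlap, 14 of them lower in left gonads, against 26.2% of all genes, 10.4% higher and 15.8% lower.

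With left and right libraries of the same number paired, which the data of E9.5 allowed, 14 members passed, the additions being HOXA4 (adjusted p = 0.0339) and HOXD10 (adjusted p = 0.0245). The paired fit also called more genes in all, 3343 against 2171. The count was 4 without the first left library of E9.5, 7 without the second or the third, and 6 without the second right library. Among all genes 1099, 1318, 1305 and 1013 passed in these fits, in the same order, against 2171 with all libraries. HOXB4 passed in all 24 fits without 1 library, and so did HOXB5, HOXB6 and HOXD3. HOXB3 was lost in 18.

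The side difference of HOXB4 widened with stage. Its log2 fold change of left against right was -0.38 at E5, -0.58 at E6.5, -0.97 at E8 and -1.08 at E9.5. The difference between the gaps at E9.5 and at E5 was -0.70 ± 0.15 (SE, adjusted p = 0.0163) on the log2 scale. It was the 1 member of 31 to pass this test, where 2.20% of all genes passed (0.869% higher, 1.34% lower). A test across all 4 stages also called HOXB4 alone among the members (F = 9.17, adjusted p = 0.0343), where 2.05% of all genes passed. In both tests a count of 1 among 31 members is near the share of all genes. HOXB5 had a difference of -0.36 ± 0.19 (SE, adjusted p = 0.371) and HOXB6 one of -0.86 ± 0.25 (SE, adjusted p = 0.0875). With same-numbered libraries paired, HOXB6 (adjusted p = 0.0421) and HOXD3 (0.0143) passed as well. The call of HOXB4 was lost without the second left or the third right library of E5, the second or the third left library of E9.5 or the second right library of E9.5 (adjusted p up to 0.0697), and the call across the 4 stages was lost in 21 of 24 such fits.

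Levels of cluster D followed the mesonephros markers. The mean log2 CPM of the 17 markers, here the mesonephros score, ran from 0.24 to 6.65 over the 24 libraries. Within groups, 5 of the 6 members of cluster D and 6 of all 31 rose with it, where 9.73% of all genes passed (8.48% rising, 1.26% falling). Per unit of the score the slope was 0.91 ± 0.10 (SE, adjusted p = 1.26e-06) for HOXD4, 0.86 ± 0.06 (SE, adjusted p = 4.72e-09) for HOXD8, 0.67 ± 0.09 (SE, adjusted p = 1.34e-05) for HOXD9, 0.67 ± 0.11 (SE, adjusted p = 2.43e-04) for HOXD10 and 0.49 ± 0.08 (SE, adjusted p = 1.24e-04) for HOXD3, all on the log2 scale. With same-numbered libraries paired, HOXD4, HOXD8 and HOXD9 still passed, and HOXD3 (adjusted p = 0.181), HOXD10 (0.310) and HOXB6 (0.318) did not. Calls among all genes then numbered 590 against 1625 without pairing. That fit paired libraries at every stage, although the data did not pair them at E6.5 and E8. HOXD11 had a slope of 0.50 ± 0.23 (SE, adjusted p = 0.207). The 17 markers themselves had slopes between 0.10 and 1.64 with a median of 1.01. Of the 25 members in clusters A, B and C, HOXB6 passed, with a slope of 0.11 ± 0.03 (SE, adjusted p = 0.0169). The call of HOXB6 was lost in 7 of 24 fits without 1 library (adjusted p up to 0.122). HOXB4 had 0.02 ± 0.02 (SE, adjusted p = 0.604) and HOXB5 0.03 ± 0.03 (SE, adjusted p = 0.529).

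**Figure D4:**
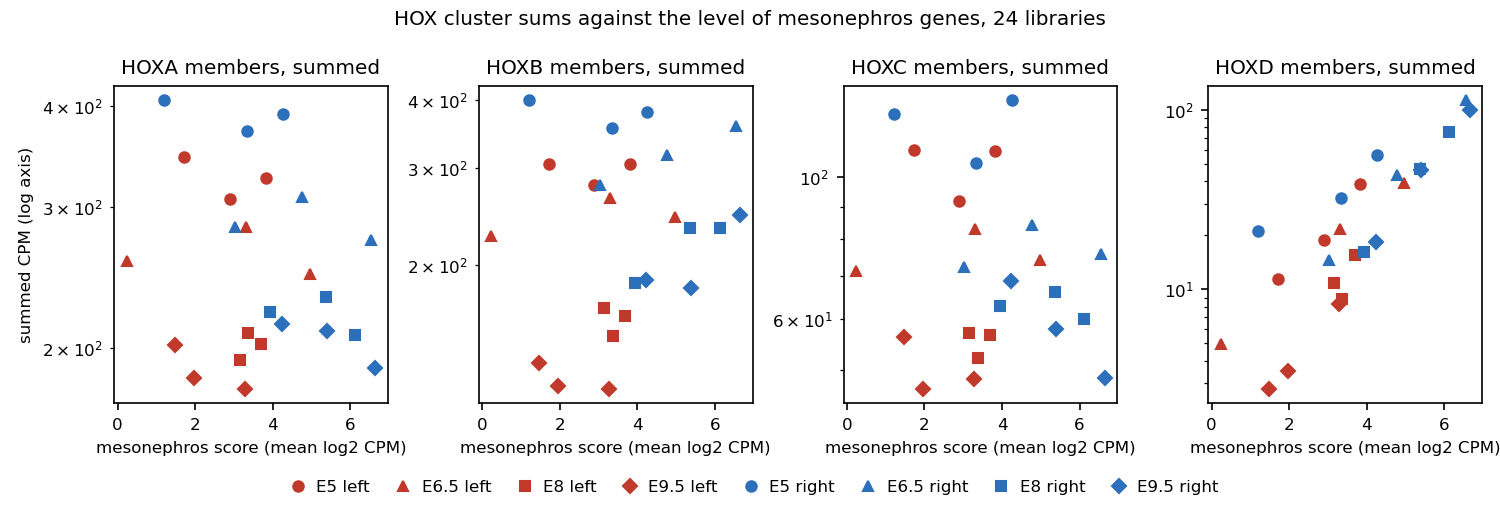
Summed level in CPM (log axis) of the members of each HOX cluster against the mesonephros score (mean log2 CPM of 17 markers) in each of the 24 libraries, red for left and blue for right gonads and a symbol for each stage. The sum of cluster D, 2.79 to 113 CPM, climbs with the score. The sums of clusters A, B and C have their highest group medians at E5 on each side. On each side their ranges at E8 and E9.5 overlap, except for cluster B in left gonads (149 to 167 CPM at E8, 119 to 133 CPM at E9.5).

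The libraries show the same pattern. The highest mesonephros scores were 6.65 in the second right library of E9.5, 6.55 in the third right library of E6.5 and 6.13 in the first right library of E8. HOXD8 stood there at 60.2, 53.1 and 37.7 CPM, its 3 highest values. At the other end, the second left library of E6.5 had a score of 0.24 and 1.43 CPM of HOXD8. The sides differed in the score, which was 1.47 to 3.28 in left and 4.23 to 6.65 in right libraries at E9.5, and 3.15 to 3.69 in left and 3.94 to 6.13 in right libraries at E8. At E5 it was 1.72 to 3.82 in left and 1.20 to 4.26 in right libraries, and at E6.5 it was 0.24 to 4.98 in left and 3.03 to 6.55 in right libraries. Of the 17 markers 7 passed as lower in left gonads at E9.5 and 2 at E8, with medians of -3.10 and -2.11 on the log2 scale, where 7.87% and 6.71% of all genes passed as lower.

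With the score as a covariate, fewer side calls held, and the 4 of cluster D at E9.5 were lost. At E8 and E9.5 the scores of left and right libraries did not overlap, so side and score cannot be told apart there. The covariate carries the slope within groups beyond the scores that the sides share. A call held or lost with it therefore does not tell the 2 apart. Calls among all genes fell too, at E9.5 from 2171 to 850. At that stage 8 members passed; 6 were among the 12 called without it (HOXA2, HOXA3, HOXB2, HOXB4, HOXB5 and HOXB6), and HOXA4 and HOXA5 were added. HOXB4 had a log2 fold change of -0.999 (adjusted p = 1.11e-04), HOXB5 one of -0.76 (0.00739) and HOXB6 one of -0.70 (0.0207). HOXD8 had -0.92 (adjusted p = 0.112) and HOXD4 -0.58 (0.623). The calls of HOXB3 and HOXB9 were also lost. Averaged over the stages, 11 of the 18 calls held, HOXD3 among them, and HOXA6, HOXA9, HOXB9, HOXD4, HOXD8, HOXD9 and HOXD10 were lost. Calls among all genes in that mean went from 5369 to 2875.

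Other results moved with the score as well. At E8 the calls of HOXB6 and HOXD3 were lost with the covariate and the other 8 held. Calls among all genes at E8 went from 2379 to 1976. The wider gap of HOXB4 at E9.5 than at E5 was -0.62 with the covariate and no longer passed (adjusted p = 0.0655). For E9.5 against E5, the covariate gave 25 calls in each gonad, adding HOXD4 and HOXD8 in the left gonad, and HOXA11, HOXD3, HOXD4, HOXD8 and HOXD9 in the right gonad, where HOXA7 was lost. In the right gonad HOXD8 then had a log2 fold change of -1.23 (adjusted p = 0.00207), beside 1.05 without it. Without the 3 right libraries named above, a set chosen after their scores were seen, 8 members passed at E9.5 and 6 at E8, and HOXB4 no longer passed in the difference between E9.5 and E5. Calls among all genes then numbered 1264 at E9.5 and 1658 at E8, against 2171 and 2379 with all libraries.

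The TALE cofactors fell along with the HOX genes over the stages. Of 9 listed, 7 were tested; 5 were lower at E9.5 than at E5 in the left gonad and 6 in the right gonad, where 16.0% and 16.1% of all genes were. MEIS2 changed most, at 39.9, 47.5 and 50.4 CPM in left gonads at E9.5 against 309, 238 and 321 CPM at E5 (-2.66 ± 0.16 (SE, adjusted p = 1.79e-10)). In right gonads it was at 99.1, 90.8 and 89.7 CPM at E9.5 against 428, 334 and 451 CPM at E5 (-2.12 ± 0.16 (SE, adjusted p = 3.27e-09)). Every E9.5 library lay far below every E5 library. MEIS1 (-1.59 in the left, -1.46 in the right gonad) and PBX3 (-0.90 and -1.05) also fell on both sides.

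MEIS2 also differed between the sides. Its level of 39.9, 47.5 and 50.4 CPM in left gonads at E9.5 was below the 99.1, 90.8 and 89.7 CPM of right gonads (-1.02 ± 0.16 (SE, adjusted p = 3.70e-04)), and at E8 it was lower too (-0.80 ± 0.16 (SE, adjusted p = 0.00215)). No other cofactor passed at a single stage. Averaged over the stages MEIS2 (-0.69 ± 0.08 (SE, adjusted p = 1.99e-06)) and MEIS1 (-0.20 ± 0.07 (SE, adjusted p = 0.0363)) were lower in left gonads. As a list, 1 of the 7 cofactors tested passed at E8, 1 at E9.5 and 2 in the mean of the stages. Among all genes 14.3%, 13% and 32.2% passed in the same order, so the counts of the list are near that background.

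**Figure D5:**
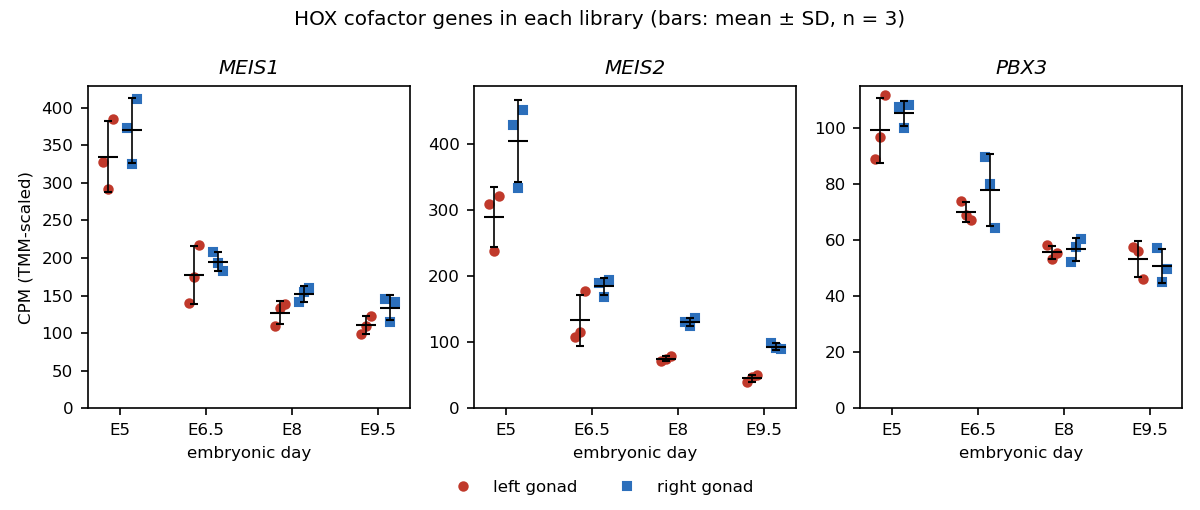
Level in CPM of MEIS1, MEIS2 and PBX3 in each of the 24 libraries by stage, left gonad and right gonad offset side by side, with the mean and SD of each group of 3 in black. MEIS2 drops over the stages on both sides and at E9.5 lies lower in left gonads (39.9 to 50.4 CPM) than in right gonads (89.7 to 99.1 CPM).

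Of 32 listed regulators of HOX clusters 23 were tested. At E9.5 against E5, 11 passed in the left gonad (3 higher, 8 lower) and 13 in the right gonad (3 higher, 10 lower), where 34.2% and 37.5% of all genes passed. In the left gonad the widest changes were those of CYP26A1, which degrades retinoic acid (-3.28 ± 0.28 (SE, adjusted p = 1.54e-08)), GDF11, a growth factor that activates posterior HOX genes in the mouse trunk (2.76 ± 0.40 (SE, adjusted p = 1.88e-05)), ALDH1A3, which makes retinoic acid (-1.71 ± 0.17 (SE, adjusted p = 1.20e-07)) and CYP26C1, of the same family as CYP26A1 (-1.60 ± 0.28 (SE, adjusted p = 1.45e-04)). In the right gonad they were RXRG, a retinoid receptor (-2.09 ± 0.77 (SE, adjusted p = 0.0376)), CYP26A1 (-2.03 ± 0.27 (SE, adjusted p = 6.74e-06)), ALDH1A3 (-1.25 ± 0.17 (SE, adjusted p = 6.22e-06)) and GMNN, a replication licensing inhibitor that also binds Polycomb proteins (1.21 ± 0.14 (SE, adjusted p = 7.04e-07)). The Polycomb subunits EZH2 and SUZ12 fell on both sides, by 0.46 and 0.23 on the log2 scale in the left gonad and by 0.67 and 0.46 in the right gonad.

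Between the sides, 3 of the 23 regulators passed at E5, 6 at E8 and 3 at E9.5, where 2.94%, 14.3% and 13% of all genes passed; the count at E9.5 is at that background. ALDH1A3 was lower in left gonads at E5 (-0.71), E8 (-0.92) and E9.5 (-1.17 ± 0.17 (SE, adjusted p = 1.68e-04)). CYP26A1 was higher in left gonads at E5 (1.03 ± 0.25 (SE, adjusted p = 0.0290)) and lower at E8 (-1.12 ± 0.26 (SE, adjusted p = 0.00720)), and its side difference varied over the 4 stages (adjusted p = 0.0141). GDF11 was higher in left gonads at E8 (1.66 ± 0.38 (SE, adjusted p = 0.00652)) and E9.5 (1.49 ± 0.38 (SE, adjusted p = 0.0145)), and its gap at E9.5 differed from that at E5 (2.29 ± 0.55 (SE, adjusted p = 0.0292)). ALDH1A1 was lower in left gonads at E9.5 (-2.46 ± 0.75 (SE, adjusted p = 0.0365)) and rose with the mesonephros score (0.64 ± 0.08 (SE, adjusted p = 5.24e-06)).

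Genes that flank the clusters moved in both directions. Of 7 listed neighbours 5 were tested, with a median log2 fold change at E9.5 against E5 of 0.07 on the left side and -0.02 on the right side. HNRNPA2B1, an RNA-binding protein gene next to cluster A, fell slightly on both sides (-0.31 ± 0.06 (SE, adjusted p = 2.25e-04) on the left side and -0.32 ± 0.06 (SE, adjusted p = 1.50e-04) on the right side), and SKAP1, next to cluster B, was higher at E9.5 in the left gonad (1.04 ± 0.38 (SE, adjusted p = 0.0401)). Between the sides HNRNPA2B1 passed at E8, higher in left gonads (0.23 ± 0.06 (SE, adjusted p = 0.00967)). Averaged over the stages 3 of the 5 passed, where 32.2% of all genes passed (14.9% higher, 17.2% lower). SKAP1 (0.67 ± 0.19 (SE, adjusted p = 0.0113)) and HNRNPA2B1 (0.08 ± 0.03 (SE, adjusted p = 0.0427)) were higher in left gonads. SKAP2, next to cluster A, was lower there (-0.20 ± 0.05 (SE, adjusted p = 0.00236)).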

How the data were processed

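Poly(A) RNA of 24 libraries from female chicken embryos (Leghorn), left and right gonads apart, was measured by RNA-seq. Per the submitters' processing notes, Trim Galore 0.6.7, STAR 2.7.10a and HTSeq 2.0.0 were used with the build GRCg6a. HTSeq's strandedness was not given in the sources used here. Raw counts per gene, not normalized, were deposited by the authors for 24154 genes.

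Genes were filtered with edgeR's filterByExpr (minimum count 10, minimum total 15), leaving 16694, and TMM factors scaled the libraries. All 24 libraries entered a single quasi-likelihood fit (edgeR 4.0.16, limma 3.58.1, R 4.3.3) with 8 group means, which share an estimate of the spread. P-values were adjusted by Benjamini-Hochberg across the 16694 genes, at a threshold of 0.05. Log2 fold changes are left over right or E9.5 over E5, and their SE was obtained from F. The common biological coefficient of variation was 0.212. CPM values use TMM-scaled totals. The scripts were tested on simulated data.

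The mesonephros score is the mean log2 CPM (prior count 2) of the 17 tested markers. Same-numbered left and right libraries deviated together at E5 (r 0.35 to 0.52 over 3 pairs) and E9.5 (0.28 to 0.42), and were taken as paired there; at E6.5 (-0.16 to 0.53) and E8 (-0.02 to 0.13) they were not. The pairing is read from the data, not from the labels.

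Named genes were the members that passed in a comparison, the 10 with the widest change where more did, HOXB4 and HOXB5 throughout, the members with the widest and smallest stage change, and up to 4 passing genes a list. EZH2, SUZ12 and any further members were added after their values were seen. Some genes that the counts include are not reported here. The members and the gene lists were chosen with earlier results of these data known. Alternatives tried were DESeq2 1.42.0, DESeq2 size factors, no filter on low counts, the compared libraries only, covariates for neighbouring tissues, a replicate block and leaving out libraries.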

Additional observations from a re-analysis of the deposited data

Results flagged for a closer look

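The side difference of HOXB4 was called as varying with stage, but the calls depended on single libraries. The log2 fold change of left against right gonads was 0.70 lower at E9.5 than at E5 (a difference of -0.70, adjusted p = 0.0163 by edgeR's quasi-likelihood test over 16694 genes), and the test of the difference across the 4 stages gave F = 9.17 (adjusted p = 0.0343). All 3 left libraries lay below all 3 right libraries at each stage. With the mesonephros score as a covariate the difference was -0.62 (adjusted p = 0.0655). The call at E9.5 against E5 was lost in 5 of 24 fits without 1 library, and the call across the 4 stages in most such fits. Groups of 3 libraries are too small for a test of single outlying libraries, so none was made.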

How the results depend on the processing

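Of 121 member results given with a fold change or slope, the 98 that passed or belonged to HOXB4 or HOXB5 in a side or stage comparison kept their direction under each alternative that could be fitted for them. Of the 23 others, none of which passed, 9 changed sign somewhere. HOXB4 passed at E6.5, E8, E9.5 and in the mean of the stages in all 24 fits without 1 library. Counts of members called moved as follows. At E5, where 1 member passed, 2 passed with DESeq2, with the adrenal and neural covariate and without the 3 mesonephros-rich libraries (a setting chosen after seeing the data), 3 with the replicate block, and 0 with the compared libraries only or without the 2 libraries with liver transcripts. At E6.5 the count of 2 became 0 with the compared libraries only and 1 without the liver-transcript or the mesonephros-rich libraries. Calls among all genes were 77, 395 and 189 in the same order, against 541. At E8 the count of 10 became 5 with the adrenal and neural covariate and 6 without the mesonephros-rich libraries. Calls among all genes were 1710 and 1658 in the same order, against 2379. At E9.5 the count of 12 became 7 with the compared libraries only, and in the mean of the stages 18 became 11 with the mesonephros covariate. Calls among all genes went from 2171 to 1032 and from 5369 to 2875 in the same order. In the difference between E9.5 and E5 the count of 1 became 2 with DESeq2, 3 with the replicate block, and 0 with the mesonephros covariate or without the mesonephros-rich libraries. Across the 4 stages it became 2 with the replicate block, and 0 without a filter on low counts, with either covariate, or without the liver-transcript or the mesonephros-rich libraries. Members rising with the mesonephros score numbered 6, and 3 with the replicate block.

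Leaving out 1 library at a time gave 0 to 2 members at E5, 1 to 3 at E6.5, 4 to 10 at E8, 4 to 12 at E9.5, 14 to 19 in the mean of the stages, 18 to 23 for E9.5 against E5 in left gonads and 20 to 24 in right gonads, 0 to 2 in the difference between E9.5 and E5, 0 to 1 across the 4 stages and 5 to 8 with the score. Calls among all genes moved as well in these fits, 1349 to 2698 at E8 and 1013 to 2576 at E9.5. The cause of these moves was not tested. At E6.5 and E8, and across stages, same-numbered libraries were not paired by the data; there the replicate block gave 3, 10 and, for E9.5 against E5, 23 members in left and 22 in right gonads. Depth limits HOXA11, HOXB1, HOXC4, HOXD10 and HOXD11, which had few counts in most libraries.

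The sign changes were as follows, on the log2 scale. HOXD8 at E9.5 against E5 in right gonads (1.05) was -1.23 with the mesonephros covariate, where it passed. HOXD9 in the same comparison (0.07) was -1.83 with that covariate, where it passed too, -0.14 with the adrenal and neural covariate, -0.82 without the mesonephros-rich libraries and -0.85 to 0.57 without 1 library. Without 1 library HOXA11 (-1.71) was -2.32 to 1.88 and HOXD11 (-0.39) -1.83 to 1.01 in right gonads, and HOXA10 (-0.21) -0.47 to 0.23 in left gonads. For left against right over the stages HOXA11 (-0.03) was 1.04 with the mesonephros and 0.30 with the adrenal and neural covariate, 0.076 with the replicate block, 0.071 without the liver-transcript and 0.10 without the mesonephros-rich libraries, and -0.38 to 0.89 without 1 library; HOXB8 (-0.15) was 0.0081 with the mesonephros covariate and 0.074 without the mesonephros-rich libraries. The slopes on the score were -0.0050 for HOXB4 and -0.011 for HOXB5 without the mesonephros-rich libraries.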

Other observations

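At E5 the members with paralog numbers 10 and 11 stood high in the first library of each side. This was not particular to them. The sum of cluster D, to which HOXD10 belongs, was at 38.8 CPM in the first left library beside 18.9 and 11.5 CPM. On the right it was at 55.9 CPM in the first library beside 32.4 and 21.3 CPM. Both first libraries also had the highest mesonephros score of their group (3.82 left, 4.26 right). Over all groups, the edgeR slope on the score passed for HOXD10 (0.67, adjusted p = 2.43e-04). It did not pass for HOXA11 (0.57, adjusted p = 0.0956), HOXD11 (0.50, 0.207), HOXC10 (0.18, 0.289) or HOXA10 (0.07, 0.474). The part of the score at E5 alone was not tested. HOXA10 was at 32.8 CPM in the first left library beside 13.9 and 17.3 CPM, and at 41.4 CPM in the first right library beside 22.9 and 18.5 CPM. HOXC10 was at 7.54 CPM beside 2.97 and 4.38 CPM on the left, and at 12.9 CPM beside 2.78 and 3.48 CPM on the right. HOXA11 was at 1.57 CPM beside 0.253 and 0.254 CPM on the left, and at 3.56 CPM beside 0.178 and 0 CPM on the right. HOXD11 had 0.543 CPM beside 0.127 and 0.0635 CPM on the left, and 1.42 CPM beside 0.237 and 0.197 CPM on the right. HOXA9 and HOXC9 did not share this in the left gonad, at 61.7 CPM beside 59.0 and 60.9 CPM and at 37.2 CPM beside 32.1 and 40.8 CPM. In the right gonad the first library was also the highest for both, HOXA9 at 84.96 CPM beside 68.7 and 63.1 CPM and HOXC9 at 39.7 CPM beside 30.9 and 32.1 CPM. These genes were picked after their values were seen, and the pattern at E5 was not tested.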
